A study of Arabidopsis thaliana with 8 samples.

Results

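The Arabidopsis expression array holds a block of probe sets, the lowest numbered on the array, that was laid out for genes of the chloroplast and mitochondrial genomes. The block was taken by its range of probe set numbers alone and comprises 150 of the 22746 probe sets tested. No measured value entered that range, but earlier results of these data were known when it was chosen. The platform annotation pairs 69 of them with 1 plastid gene and 12 with 1 mitochondrial gene. A further 8 carry several plastid entries and 1 carries several mitochondrial genes, so these are not named. Another 15 are paired with nuclear loci of chromosome 2, of which 10 lie outside the AT2G07 locus series, so the block is not purely organellar. The remaining 45 have no gene listed in the annotation used here and appear by probe set number at most. No probe set on the array has a number below the block, its last member is the probe set of psbK, and the next probe set, 245051_at, has no gene listed. The mean intensity of 245051_at was 427, and its log2 fold change was 0.14 in F5H-OE against WT, where psbK stood at 0.29.

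Inflorescence stems of Arabidopsis thaliana, ecotype Columbia-0, were sampled from plants 1.5 months old, with stems of 5 plants pooled in each sample. There were 3 samples of the wild type (WT), 3 of a line labelled F5H-OE, an overexpressor of F5H, and 2 of the line labelled fah-1, a loss-of-function mutant of the same gene. F5H is ferulate/coniferaldehyde 5-hydroxylase, a cytochrome P450 enzyme on the route to syringyl lignin. The labels do not give the promoter of the overexpression construct or the number of independent lines, and no probe set carries the name of F5H here, so the labels were not checked against its transcript. The comparisons ask whether transcripts of the organelle genomes differ between stems with more, normal or less F5H activity as labelled. In pooled stem tissue, fewer cells of a type and less RNA per cell cannot be told apart.

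Chloroplasts and mitochondria keep small genomes of their own. The plastid genome encodes core subunits of both photosystems, of the cytochrome b6f complex, of ATP synthase and of the NAD(P)H dehydrogenase-like (NDH) complex, the large subunit of Rubisco, and parts of the plastid RNA polymerase and ribosome. The mitochondrial genome encodes subunits of respiratory complex I and of cytochrome c oxidase, proteins of cytochrome c maturation, and a few others. Plastid genes are largely cotranscribed in clusters, and transcripts of both genomes are mostly not held as stable polyadenylated RNA. Labelling by the standard Affymetrix protocol starts at poly(A) tails, so the intensities need not follow total organelle RNA.

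All 8 arrays had similar median intensities, between 112 and 118. F5H-OE replicate 1 stood apart from the other arrays. It correlated with the other F5H-OE arrays at a mean of 0.987 over all probe sets. The mean within the own group was 0.991 and 0.992 for F5H-OE replicates 2 and 3, both of which include replicate 1. It was 0.994 to 0.997 for the WT and fah-1 arrays. The GAPDH control signal near the 3′ end exceeded that near the 5′ end by 1.47 (log2) in F5H-OE replicate 1. Elsewhere it did so by 0.510 to 0.853, a gap that widens as RNA degrades. As a marker of background, the brightest of the TrpnX control probe sets, designed on a bacterial gene, read between 12.5 and 15.2 over the arrays. Of the 150 members, 136 exceeded it in every array and 6 in none. Of the 69 plastid members 67 exceeded it in every array, ndhF did in none, and all 12 mitochondrial members did in every array.

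Single-array intensities of the plastid members ran from 9.65 to 18446, and those of the mitochondrial members from 34.8 to 518. Probes differ in how strongly they bind, so levels are compared here only between arrays for the same probe set. Differences between groups were small. In F5H-OE against WT, 1 of 150 members passed the test (adjusted p under 0.05 over all probe sets), against 2.65% of all probe sets. It was higher (1 of 150, against 1.29% of all probe sets called higher), and none was lower, against 1.36%. In fah-1 against WT, none of the 150 passed limma's test, against 0.00879% of all probe sets, and 5 members (3.33%) had an unadjusted p under 0.05, against 5.02%. Between F5H-OE and fah-1, 2 of 150 passed, against 1.97%. Of these, 1 was higher, against 1.14%, and 1 lower, against 0.835%. The share of members with an unadjusted p under 0.05 was 8.67% in F5H-OE against WT, against 17.5% of all probe sets, and 12% in F5H-OE against fah-1, against 15.7%.

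The median log2 fold change over the 150 members was -0.03 in F5H-OE against WT, 0.03 in fah-1 against WT and -0.07 in F5H-OE against fah-1. The corresponding medians over all probe sets were -0.02, -0.02 and -0.01. Members above 0 numbered 66 (44%, against 44.1% of all probe sets), 98 (65.3%, against 43.5%) and 54 (36%, against 48.5%) in the same order. Without F5H-OE replicate 1 they numbered 49 (32.7%, against 45.7%) in F5H-OE against WT, with a median of -0.07, and 30 (20%, against 50.3%) in F5H-OE against fah-1, with a median of -0.11. Both comparisons with WT share the WT arrays, and both comparisons of F5H-OE share the F5H-OE arrays. For most members the data bound the difference rather than leave it wide. The 95% confidence interval lay within 2-fold in either direction for 147 of 150 members in F5H-OE against WT. The count was 148 in fah-1 against WT and 148 in F5H-OE against fah-1. Over all 22746 probe sets these counts were 21539, 21996 and 21239. The interval lay within 1.5-fold for 138, 145 and 130 members, and for 18739, 19598 and 17816 of all probe sets. Members not above the TrpnX level are counted too, and their intervals bound signal near background.

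**Figure D1:**
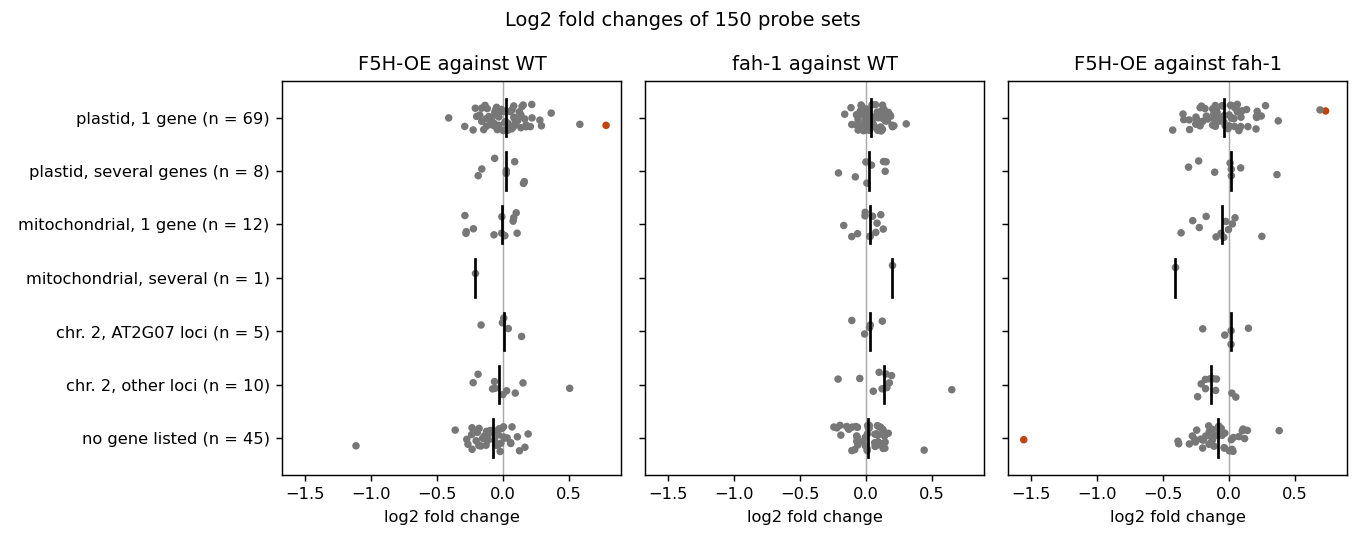
Log2 fold change of each of the 150 probe sets (points) in the 3 comparisons, by what the annotation pairs them with; the black bar is the median of a class, and orange points passed the test at an adjusted p under 0.05. Nearly all points lie close to 0. The orange points are petG, at 0.78 in F5H-OE against WT and 0.73 in F5H-OE against fah-1, and 245038_at, at -1.56 in F5H-OE against fah-1.

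The plastid member that changed was petG (244966_at), which encodes a small membrane subunit of the cytochrome b6f complex, the link of electron transport between the photosystems. Its intensity was 15.5, 15.2 and 16.5 in the WT arrays, 30.6, 25.6 and 25.2 in the F5H-OE arrays, and 15.8 and 16.7 in the fah-1 arrays. All F5H-OE arrays lay above all arrays of the other lines, whose values overlapped. petG was 1.72-fold higher in F5H-OE than in WT (log2 fold change 0.78 ± 0.09, SE, adjusted p = 0.00479 by limma, 3 against 3 arrays). Against fah-1 it was 1.66-fold higher (0.73 ± 0.10, adjusted p = 0.0126 by limma, 3 against 2 arrays). Between fah-1 and WT the log2 fold change was 0.05, with an interval from -0.19 to 0.29. The WT and fah-1 intensities are dim, just above the TrpnX level of the same arrays, so the fold is open to background. Without F5H-OE replicate 1 the log2 fold change against WT was 0.69 (adjusted p = 0.00247 by limma). The call against fah-1 was lost without fah-1 replicate 1 (adjusted p = 0.129) or replicate 2 (adjusted p = 0.130), with the lone fah-1 array left then taken to spread as the other lines do.

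In the gene order of the plastid genome petG lies next to petL, which encodes another small subunit of the same complex, and, past the tRNA genes trnW and trnP, to psaJ, rpl33, rps18 and rpl20. The probe set of petL read 600, 526 and 385 in WT, 680, 578 and 662 in F5H-OE, and 487 and 498 in fah-1. F5H-OE and WT overlapped for petL, and the log2 fold change of 0.37 ± 0.15 (SE) did not pass the test (adjusted p = 0.271 by limma, interval 0.01 to 0.72). All F5H-OE arrays of petL lay above both fah-1 arrays, as held for 18% of all probe sets, and petL did not pass against fah-1 either. On the far side of petG the log2 fold changes in F5H-OE against WT were 0.12 for psaJ, -0.20 for rpl33, -0.05 for rps18 and -0.18 for rpl20, none past the test. psbE and psbF, which encode the cytochrome b559 subunits of photosystem II and follow beyond petL, both stood at -0.09. The difference of petG was thus not seen at the same size in the measured neighbours, though the differences between their fold changes were not tested.

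**Figure D2:**
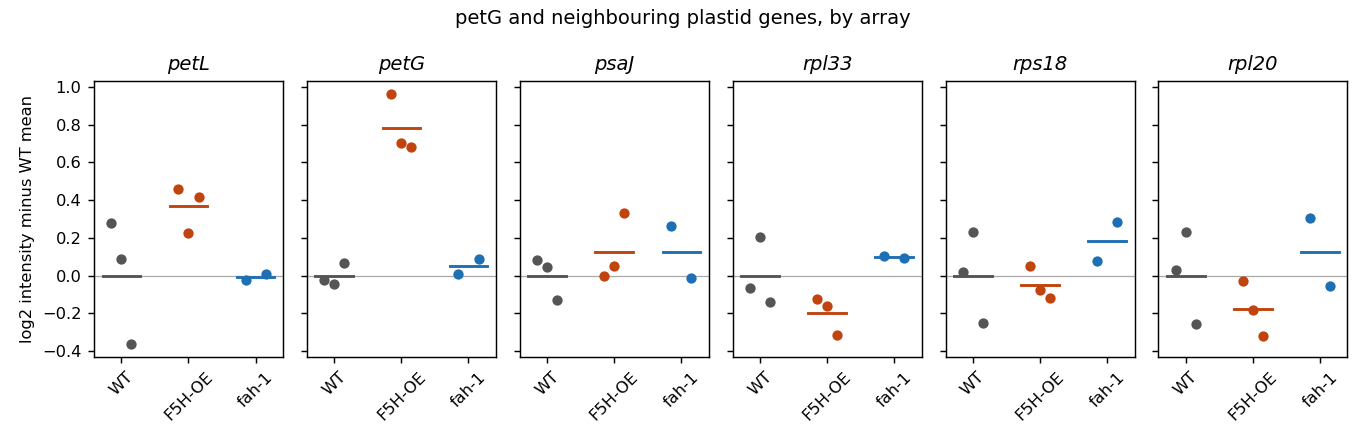
Log2 intensity minus the WT mean of each probe set, for petG and 5 measured plastid genes in genome order; points are arrays and bars are group means. The F5H-OE points of petG lie clear of the WT and fah-1 points, those of petL overlap the WT points, and in psaJ, rpl33, rps18 and rpl20 the group differences are no larger than the spread between arrays or only slightly above it.

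The other cytochrome b6f genes did not pass in any comparison. petD, for subunit IV, read 24.4, 28.4 and 26.1 in WT, 22.1, 20.9 and 24.4 in F5H-OE, and 30.4 and 26.8 in fah-1. Its log2 fold change was -0.23 ± 0.10 (SE) in F5H-OE against WT (adjusted p = 0.273) and -0.35 ± 0.11 in F5H-OE against fah-1 (adjusted p = 0.172). petA, for cytochrome f, read 1066, 1060.0 and 1126 in WT and 1279.9 and 1207 in fah-1. The fah-1 arrays of petA lay above the WT arrays, with a log2 fold change of 0.20 ± 0.10 (SE, adjusted p = 0.965), and the 3 F5H-OE arrays, at 1327, 1154 and 1102, overlapped both. petB, for cytochrome b6, was at 0.00 in F5H-OE against WT. Over the list of 7, which also holds petN and ccsA, a factor that attaches heme to c-type cytochromes, the median was 0.14 in F5H-OE against WT, with 5 above 0 and 1 past the test. Without F5H-OE replicate 1 the median was 0.06, with 4 above 0, and petG was still the 1 past the test.

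Of 7 photosystem I genes, counting the assembly factors ycf3 and ycf4, 6 lay above 0 when F5H-OE was set against WT, with a median of 0.12 and no call. Without F5H-OE replicate 1, 3 of the 7 lay above 0, and the median was -0.01. psaB, for a reaction centre subunit, read 7753, 6944 and 7557 in WT, 9167, 8169.8 and 7803 in F5H-OE, and 7321 and 7126 in fah-1. All F5H-OE arrays of psaB exceeded all others by a small margin, with log2 fold changes of 0.17 ± 0.09 (SE) against WT (adjusted p = 0.344) and 0.21 ± 0.10 against fah-1 (adjusted p = 0.336). ycf3 was the member of this list below 0: it read 826, 800 and 678 in WT, 536, 743 and 478 in F5H-OE, and 749 and 625 in fah-1. The replicates of ycf3 overlapped, and the log2 fold change in F5H-OE against WT was -0.41 ± 0.17 (SE, adjusted p = 0.256).

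Photosystem II was covered by 15 genes, of which 12 lay above 0 when F5H-OE was set against WT, with a median of 0.08 and no call. This count fell to 7 of 15 without F5H-OE replicate 1, with a median of -0.03. psbK, a small core subunit, read 3799.9, 3124 and 3471 in WT, 4247, 4417 and 4032 in F5H-OE, and 3870 and 3289 in fah-1. Its F5H-OE arrays lay above all others, and the log2 fold change against WT was 0.29 ± 0.10 (SE, interval 0.06 to 0.52, adjusted p = 0.188). psbI, another small subunit, stood at 0.22 ± 0.10 (SE) against WT (adjusted p = 0.315) and 0.28 ± 0.11 against fah-1 (adjusted p = 0.288). psbT, which encodes a small subunit at the dimer interface, read 144, 108 and 77.5 in WT, 276, 131 and 112 in F5H-OE, and 98.3 and 99.3 in fah-1. The psbT value of F5H-OE replicate 1 was above every other array, and the other F5H-OE values lay within the WT range. The log2 fold change of psbT was 0.58 ± 0.34 (SE) with all arrays and 0.19 ± 0.22 without F5H-OE replicate 1. psbA, for the D1 reaction centre protein, gave 0.12 in F5H-OE against WT, or 0.00 without F5H-OE replicate 1, and 0.16 in fah-1 against WT, and was not called. psbD, for the D2 protein, read 280, 255 and 278 in WT and 298 and 329 in fah-1, whose arrays lay above WT (0.21 ± 0.09, SE, adjusted p = 0.965).

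The 6 ATP synthase genes had a median of 0.00 between F5H-OE and WT, or -0.08 without F5H-OE replicate 1, and no gene passed. atpE, for the epsilon subunit of the catalytic head, read 16855, 17465 and 16349 in WT, 17503, 15689.9 and 16408 in F5H-OE, and 16657 and 16541 in fah-1, so the 3 lines overlapped. atpH, for the ring subunit of the membrane part, read 1129 in F5H-OE replicate 1 and 592 to 689 in the other 7 arrays. Its log2 fold change in F5H-OE against WT was 0.21 with all arrays and -0.08 without that one.

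The NDH complex, which returns electrons to the plastoquinone pool around photosystem I, was covered by 10 genes. The median was -0.05 in F5H-OE against WT, 0.03 in fah-1 against WT and -0.09 in F5H-OE against fah-1, and none passed in any of them. Leaving out F5H-OE replicate 1 took the medians to -0.10 in F5H-OE against WT and -0.14 in F5H-OE against fah-1. ndhH read 23.7, 26.5 and 26.6 in WT, 25.2, 24.8 and 24.7 in F5H-OE, and 31.2 and 32.0 in fah-1. The fah-1 arrays of ndhH lay above all others. The log2 fold change was 0.31 ± 0.08 (SE, adjusted p = 0.898) against WT and -0.34 ± 0.08 in F5H-OE against fah-1 (adjusted p = 0.0849), so neither passed. ndhJ stood at -0.21 ± 0.10 (SE) in F5H-OE against WT (adjusted p = 0.303), and ndhD at 0.20 ± 0.10 in fah-1 against WT (adjusted p = 0.965). The ndhF probe set was not above the TrpnX level in any array, so its fold is not given. It is still counted in the list of 10 and among the plastid members.

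The remaining plastid genes also gave no call. rbcL, for the large subunit of Rubisco, read 1289, 1426 and 1735 in WT, 2046, 1145 and 1179.6 in F5H-OE, and 1525 and 1463 in fah-1. Here F5H-OE held both the highest and the lowest arrays, and the log2 fold change against WT was -0.07 with all arrays and -0.34 (adjusted p = 0.149) without F5H-OE replicate 1. accD, for a subunit of the acetyl-CoA carboxylase of fatty acid synthesis, clpP, for a protease subunit, cemA, an envelope membrane protein, and matK, a maturase for introns, lay between -0.06 and 0.07 in F5H-OE against WT. Without F5H-OE replicate 1 accD stood at -0.18, and clpP, cemA and matK between -0.03 and 0.06. The 4 genes of the plastid-encoded RNA polymerase had a median of -0.03 in F5H-OE against WT, 0.12 in fah-1 against WT and -0.16 in F5H-OE against fah-1. Without F5H-OE replicate 1 the median was -0.08 in F5H-OE against WT and -0.18 in F5H-OE against fah-1. rpoB, for its beta subunit, was near background, with 1 of 3 F5H-OE arrays above the TrpnX level.

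Of 15 genes for plastid ribosomal proteins, 5 lay above and 10 below 0 in F5H-OE against WT, with a median of -0.06. Without F5H-OE replicate 1, 3 lay above 0, with a median of -0.10. In F5H-OE against fah-1 the median was -0.11, and none passed in any comparison. Without F5H-OE replicate 1 the median against fah-1 was -0.14, with 2 of 15 above 0. rps15, of the small subunit, read 131, 177 and 159 in WT, 130, 126 and 123 in F5H-OE, and 163 and 177 in fah-1. Its F5H-OE arrays were the 3 lowest, with the first only just under the lowest WT array. The log2 fold change was -0.29 ± 0.11 (SE, adjusted p = 0.238) against WT and -0.43 ± 0.13 against fah-1 (adjusted p = 0.156). Among plastid members below 0 in fah-1 against WT, those with the smallest p were ndhJ, rps14, ycf3 and atpF. They stood at -0.11, -0.07, -0.16 and -0.07 in that order, none past the test (adjusted p from 0.973 to 0.976 by limma).

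**Figure D3:**
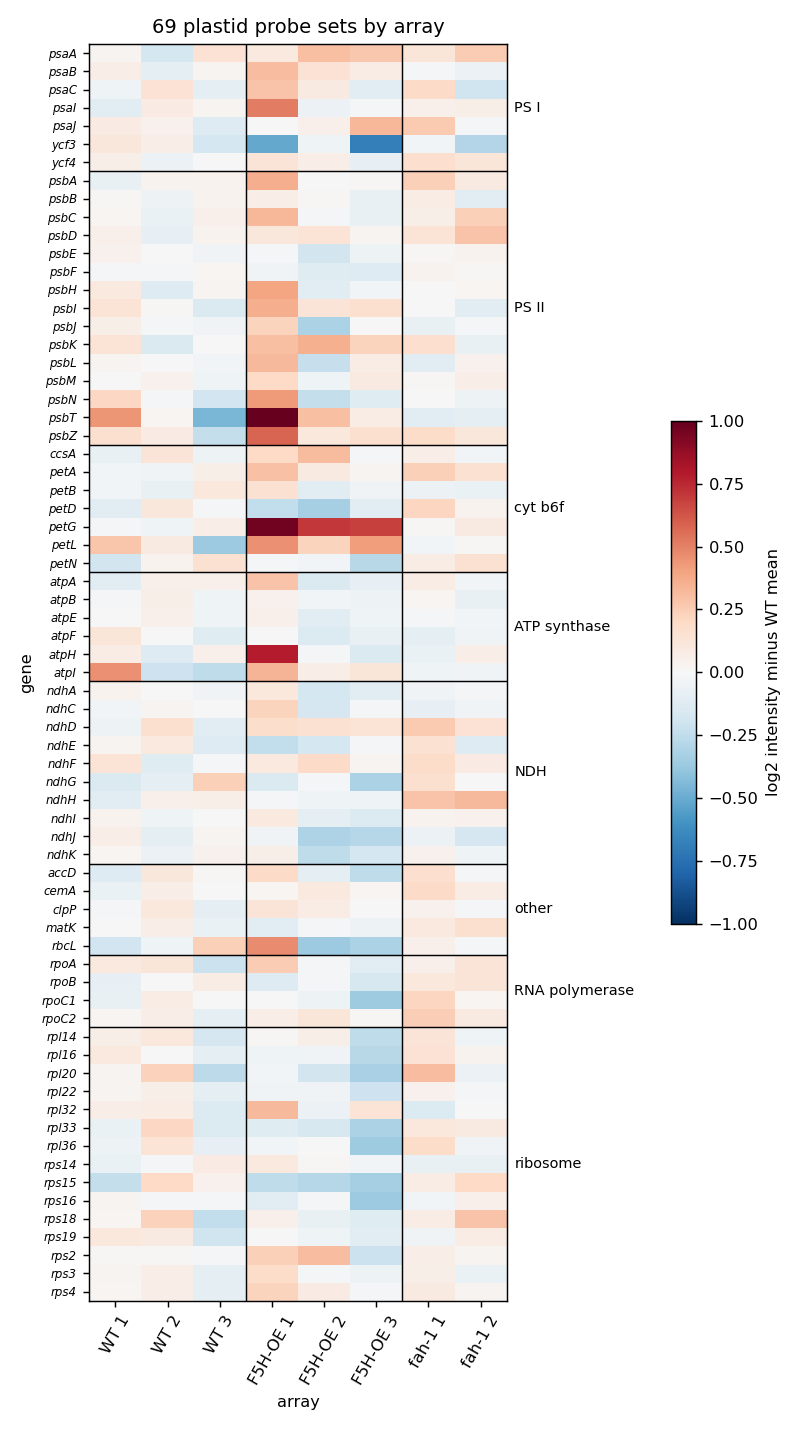
Log2 intensity minus the WT mean for the 69 plastid probe sets (rows, grouped by complex) in the 8 arrays (columns); red is higher and blue lower, and the colour scale ends at 1 in either direction, which psbT in F5H-OE replicate 1 exceeds. The petG row is red in all F5H-OE arrays, whereas psbT, atpH, rbcL and psaI are red mainly in F5H-OE replicate 1.

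F5H-OE replicate 1 gave the highest of the 8 values for 32 of the 69 plastid members (46.4%) and for 6 of the 12 mitochondrial members, against 14.9% of all probe sets. It lay above the mean of replicates 2 and 3 for 59 of 69 plastid members (85.5%), against 43.1% of all probe sets. The median of plastid members relative to the WT mean was 0.11 (log2) in the first F5H-OE array, -0.02 in replicate 2 and -0.05 in replicate 3. The gap to the mean of replicates 2 and 3 was largest for psbT, at 1.19, followed by atpH at 0.87 and rbcL at 0.82. This is also the array with the widest gap between 3′ and 5′ GAPDH signals, and the part of RNA quality in these values was not tested. Without it, 23 of 69 plastid members lay above 0 in F5H-OE against WT, with a median of -0.07, where 38 had lain above 0 with a median of 0.02. Called members without it numbered 3 of 150, or 2%, against 7.73% of all probe sets. They were petG, higher, and nad9 and 245038_at, lower.

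The 12 mitochondrial members had median log2 fold changes of -0.01 in F5H-OE against WT, 0.03 in fah-1 against WT and -0.05 in F5H-OE against fah-1, and none passed. Without F5H-OE replicate 1 the median was -0.08 against WT, with 3 of 12 above 0 where 5 had been, and -0.14 against fah-1, with 2 of 12 above 0 where 3 had been. Complex I, which takes electrons from NADH, was represented by nad4, nad4L, nad6, nad7 and nad9. nad4L read 126, 115 and 118 in WT, 149, 104 and 114 in F5H-OE, and 126 and 133 in fah-1. The F5H-OE arrays of nad4L spanned all others, and its log2 fold change against WT was 0.01 ± 0.13 (SE, interval -0.28 to 0.31). nad9 read 129, 126 and 122 in WT, 131, 96.2 and 88.6 in F5H-OE, and 116 and 118 in fah-1. Replicates 2 and 3 of F5H-OE were the lowest nad9 arrays, while replicate 1 was the highest. The log2 fold change of nad9 in F5H-OE against WT was -0.28 ± 0.14 (SE, adjusted p = 0.335), and without replicate 1 it was -0.45 ± 0.08 (adjusted p = 0.0137 by limma). nad7 stood at -0.22 in F5H-OE against WT, short of the test, and nad4 and nad6 at -0.01 and 0.08.

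cox2, for a core subunit of cytochrome c oxidase, read 86.2, 98.3 and 98.3 in WT, 126, 94.6 and 87.3 in F5H-OE, and 103 and 103 in fah-1. The highest and second lowest cox2 arrays were both F5H-OE arrays, and the log2 fold change against WT was 0.11 ± 0.14 (SE). Of the genes for cytochrome c maturation, the assembly of heme onto cytochrome c, ccb382 read 283, 384 and 274 in WT, 293, 306 and 326 in F5H-OE, and 318 and 300 in fah-1. For ccb382 both lines lay within the WT range, with log2 fold changes of -0.01 ± 0.13 (SE) and -0.01 ± 0.15 against WT. ccb452 read 316, 325 and 377 in WT, 330, 264 and 244 in F5H-OE, and 308 and 340 in fah-1. Its log2 fold change in F5H-OE against WT was -0.29 ± 0.13 (SE, adjusted p = 0.288). Without F5H-OE replicate 1 that value was -0.42 ± 0.10 (adjusted p = 0.0502 by limma), just short of the threshold. ccb203 and ccb206 stood at -0.07 and 0.10.

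orfX encodes a protein of the membrane transport family MttB. It read 73.2, 91.5 and 95.4 in WT, 70.4, 69.8 and 72.8 in F5H-OE, and 85.0 and 98.1 in fah-1. The F5H-OE arrays of orfX were the 3 lowest, but 1 WT array was almost as low, and the log2 fold changes of -0.28 ± 0.11 (SE) against WT (adjusted p = 0.251) and -0.36 ± 0.13 against fah-1 (adjusted p = 0.215) did not pass. matR, a maturase for intron splicing, was lowest in fah-1, at 34.8 and 35.4 against 39.1 to 39.8 in WT, with a log2 fold change of -0.17 ± 0.11 (SE, adjusted p = 0.970). A further 11 probe sets outside the number range are paired with mitochondrial genes (nad1, nad2, nad5 and cox1), and none passed in any comparison. Their medians were -0.11, 0.09 and -0.13 in the order of the comparisons above.

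**Figure D4:**
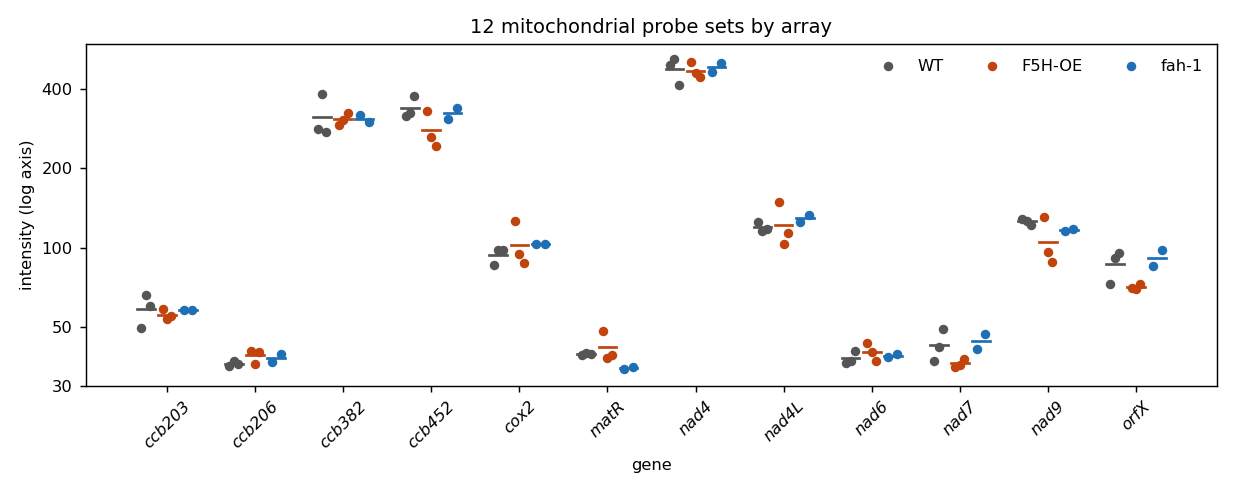
Intensity on a log axis of the 12 mitochondrial probe sets in each array (points), with group means (bars). The groups overlap for most genes. For nad9 the F5H-OE arrays split, with 131 in replicate 1 and 96.2 and 88.6 in the others.

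The nuclear members showed no call. The 5 probe sets of AT2G07 loci lie in a region of chromosome 2 that holds a near-identical copy of the mitochondrial genome. They had log2 fold changes from -0.17 to 0.14 in F5H-OE against WT. Nuclear and mitochondrial transcripts cannot be told apart by them. The probe sets paired with mitochondrial genes may likewise take up transcripts of that copy, and its part in their values was not tested. Among the other 10 chromosome 2 members, AR781 read 144, 202 and 145 in WT, 326, 173 and 214 in F5H-OE, and 255 and 252 in fah-1. The fah-1 arrays of AR781 lay above WT, at 0.65 ± 0.25 (SE, adjusted p = 0.958), and F5H-OE overlapped both. YAB5, a YABBY transcription factor, stood at -0.23 in F5H-OE against WT (adjusted p = 0.324) and -0.05 in fah-1 against WT.

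Of the 45 members with no gene listed, 245038_at was the 1 past the test. By number, the nearest members with a gene listed are 245034_at and 245039_at. Both are paired with nuclear loci of chromosome 2, AT2G26390 and AT2G26600, so 245038_at need not measure an organelle transcript. 245038_at read 288, 300 and 288 in WT, 208, 122 and 96.6 in F5H-OE, and 355 and 443 in fah-1. The lines did not overlap: every F5H-OE array was below every WT array, and both fah-1 arrays were above. It was 2.94-fold lower in F5H-OE than in the mutant, a log2 fold change of -1.56 ± 0.27 (SE) with an adjusted p of 0.0305 by limma. In F5H-OE against WT the log2 fold change was -1.12 ± 0.25 (SE, adjusted p = 0.0579), short of the threshold, and in fah-1 against WT it was 0.44 ± 0.27 (adjusted p = 0.970). F5H-OE replicate 1 was the closest of its group to WT. Without it the log2 fold changes were -1.43 against WT (adjusted p = 0.000938 by limma) and -1.87 against fah-1 (adjusted p = 0.000483 by limma). The call against fah-1 was lost when any 1 of the other 7 arrays was left out (adjusted p from 0.0544 to 0.288). Of all 45, 11 (24.4%, against 44.1% of all probe sets) lay above 0 and 34 below in F5H-OE against WT, with a median of -0.08. Some of the 45 have numbers among those of the chromosome 2 loci, so they need not all measure organelle transcripts.

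Counted over all members, the arrays of F5H-OE and WT did not overlap for 14 (9.33%, against 21% of all probe sets). Of these 5 were higher, against 9.34% of all probe sets, and 9 lower, against 11.7%. For fah-1 and WT this held for 33 (22%, against 23.4%), with 21 higher (14%, against 8.58%) and 12 lower (8%, against 14.9%). For F5H-OE and fah-1 it held for 58 (38.7%, against 36.8%), with 13 higher in F5H-OE (8.67%, against 18%) and 45 lower (30%, against 18.9%). The members share transcription units and arrays, so these counts are not independent.

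Nuclear genes that work with the organelle genomes were covered in part. Of 47 photosystem and Calvin cycle symbols, 7 could be named (LHCB4.1, LHCB4.2, PSAE-1, PSAN, ATPC1, RCA and PRK), and none passed in any comparison. Their median in F5H-OE against WT was 0.07, and the smallest p belonged to LHCB4.2, a light-harvesting protein of photosystem II, at 0.24 ± 0.08 (SE, adjusted p = 0.165). Of 24 symbols for mitochondrial respiration and its stress response, 7 could be named, and none passed. NDB2, an alternative NADH dehydrogenase, stood at 0.30 ± 0.18 (SE, adjusted p = 0.433) in F5H-OE against WT. No gene of the lists for organelle RNA polymerases and sigma factors (18 symbols), polymerase-associated proteins (16) or RNA degradation (8) carried a name here. Among markers of stem cell types, the phloem sugar transporter SWEET11, the 1 phloem marker of 4 that could be named, stood at -1.90 ± 0.77 (SE, adjusted p = 0.256) in F5H-OE against WT and at -1.98 ± 0.87 (adjusted p = 0.321) in F5H-OE against fah-1. The 3 named xylem genes of 8 (IRX15, IRX15-L and GUT2, also called IRX10), which act in xylan synthesis, lay at 0.02 to 0.19 in F5H-OE against WT and -0.55 to -0.34 in fah-1 against WT. Between F5H-OE and fah-1 they lay at 0.49 to 0.64, with GUT2 past the test (adjusted p = 0.0377 by limma), in the same comparison as the calls of petG and 245038_at. The part of cell composition in those calls was not tested. No marker of the flower and silique or cell cycle lists could be named.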

How the data were processed

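Stem RNA was labelled with biotin and hybridised to 1-colour Affymetrix arrays, per the labels' protocols. The deposited values are linear intensity values, 1 per probe set. The submitters' processing notes name RMA, without a version. Which chip definition and filters were used is not given in the sources used here. Because RMA equalises the arrays' distributions, a general rise or fall of transcripts cannot be seen. The test plan had assumed log2 values, so log2 was taken first, with no pseudocount.

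The 64 control probe sets of 22810 were left out. limma 3.58.1 (R 4.3.3) fitted the 3 group means to the 8 arrays together, by lmFit and eBayes. Tests were 2-sided, adjusted by Benjamini-Hochberg over 22746 probe sets, with a threshold of 0.05; every p is from this test, SEs are moderated, and intervals are 95%. The number of arrays limits the precision. The labels call the samples biological replicates; the design text speaks of 3 per group, and 2 fah-1 samples were analysed. No 2 arrays held identical values.

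Gene names came from the platform annotation, in which 13513 probe sets had 1 gene, 503 several and 8730 none listed. Mitochondrial symbols, and the order of plastid genes, came from a gene table of the TAIR10.1 assembly; no coordinates or sequences are given. Members, lists, tests and the TrpnX background level were chosen with earlier results of these data known. Named were the members past the threshold, per comparison up to 8 of each organelle with the smallest p, in both directions, the brightest and dimmest of each organelle, and nad4L and ccb382. Other members of the complexes, and AR781, YAB5 and those singled out for F5H-OE replicate 1, were named after their values were seen.

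The test plan did not take the replicate numbers as pairs. Same-numbered WT and F5H-OE arrays had correlations of their deviations of 0.17, 0.33 and -0.02. Differently numbered ones ran from -0.25 to 0.05, so the values do not settle whether the numbers mark pairs. Alternatives were recentred or quantile normalized values, a filter on the dimmest 25% of probe sets, fits of the compared groups alone, a spread that was trended or robust, weighted arrays, a block for the replicate number, other definitions of the members, and each array left out in turn.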

Additional observations from a re-analysis of the deposited data

How the results depend on the processing

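petG kept its call in F5H-OE against WT under every alternative that measured it (adjusted p from 0.00104 to 0.0271 by limma), and was itself removed by the filter on dim probe sets. Its call in F5H-OE against fah-1 was lost in the fit of those groups alone (adjusted p = 0.0563) and with a replicate block (0.0570), and that of 245038_at was lost there too (0.113 and 0.0827). Members called in F5H-OE against WT numbered 1, but 0 of the 122 members left by the dim filter, which had removed petG. They numbered 8 with array weights (5.33%, against 11.1% of all probe sets) and 1 to 3 with each WT or F5H-OE array left out. The 8 were petG, higher, and 245038_at, nad9, ccb452, rps15 and 3 members without a gene listed, lower. F5H-OE replicate 1 had the lowest array weight, 0.307. In F5H-OE against fah-1 they numbered 2, but 1 after the dim filter, 0 in the fit of 2 groups, 10 with array weights (6.67%, against 12.7%; orfX, ndhH and rps15 among them), 0 with the replicate block and 0 to 2 with each array left out. That count was 1 over the 92 probe sets of plastid or mitochondrial genes anywhere on the array. It was also 1 over the 81 members with 1 such gene (1.23%, against 1.97% of all probe sets), a choice made after the data were seen. In fah-1 against WT no alternative called a member. Medians over the members moved by less than the spread between replicates, 0.084 (log2). That spread is larger than the medians themselves, so it cannot show that they are stable. With each array left out they ran from -0.072 to 0.0045 in F5H-OE against WT. In fah-1 against WT they ran from 0.019 to 0.065, and in F5H-OE against fah-1 from -0.11 to -0.043.
Over all probe sets, 603 were called in F5H-OE against WT, and 379 in the fit of 2 groups, 2526 with array weights, 401 with the replicate block and 237 to 1758 with each array left out. In F5H-OE against fah-1 these were 449, 274, 2878, 229 and 69 to 1554. After recentring the latter split into 211 higher and 241 lower, where it had been 259 and 190. In fah-1 against WT there were 2, 1 with a robust spread and 1 to 3 with each array left out. The highest counts of both F5H-OE comparisons came without F5H-OE replicate 1. As a hint from the data, WT replicates 1 and 2 deviated most like the F5H-OE array of their own number and WT replicate 3 did not.
Several small values that passed in no setting changed sign. In fah-1 against WT, recentring gave 0.0083 for atpE, 0.025 for ccb203 and 0.027 for ccb382, a further quantile normalization gave 0.00045 for ccb203 and 0.015 for ccb382, and the replicate block gave -0.037 for nad4. In F5H-OE against WT, nad4L stood at -0.0078 after recentring, -0.0100 after quantile normalization and -0.058 with array weights, and cox2 at -0.063 with array weights. In F5H-OE against fah-1, recentring gave -0.029 for ccb206 and -0.0087 for nad6, array weights gave 0.038 for ccb382 and -0.013 for nad6, and the replicate block gave 0.0069 for atpE, 0.021 for ccb382 and 0.028 for nad4.
With each array left out, the lowest and highest values in F5H-OE against WT were -0.074 and 0.0054 for atpE, -0.099 and 0.14 for ccb382, -0.050 and 0.21 for cox2, -0.025 and 0.14 for matR, -0.11 and 0.058 for nad4, and -0.14 and 0.12 for nad4L. In fah-1 against WT they were -0.12 and 0.086 for ccb203, -0.095 and 0.15 for ccb382, -0.13 and 0.014 for ccb452, -0.066 and 0.097 for nad4, and -0.033 and 0.19 for orfX. In F5H-OE against fah-1 they were -0.049 and 0.030 for atpE, -0.025 and 0.076 for ccb206, -0.047 and 0.040 for ccb382, -0.095 and 0.017 for nad4, -0.25 and 0.011 for nad4L, and -0.0086 and 0.10 for nad6.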
